A study of Mus musculus with 6 samples.

Results

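Immediate early response genes were described in bone marrow neutrophils of WT mice and of mice whose myeloid cells were to lack LRP5. The 10 genes, Fos, Fosb, Jun, Junb, Jund, Egr1, Ier2, Ier3, Atf3 and Btg2, were chosen by name as a textbook set, though with earlier results of these data known. Each matched 1 of the 52636 rows of the expression table. All 10 were among the 9775 genes whose mean over all libraries was at least 1 TPM. TPM is a relative transcript level from which gene length has been taken out and which sums to the same total in each library, so levels of different genes can be compared. The depth behind a single value is unknown. In RNA from whole cell samples, fewer cells that express a gene and less RNA per cell cannot be told apart.

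RNA came from C57BL/6N mice aged 10 weeks, in 3 libraries labelled WT and 3 labelled LRP5f/f/Lyz2Cre+, called LRP5-null here. In the second group, Lrp5 was floxed and Cre was driven by Lyz2, a lysozyme gene that is active in monocytes and macrophages as well as in neutrophils. The labels do not say whether the WT mice carried Cre or were littermates, nor whether each library was a separate mouse, so that p-values measure the spread between libraries. Lrp5 itself gave no check of the deletion, since its transcript was at 1.84 ± 0.21 TPM (SD, n = 3) in LRP5-null and 1.29 ± 0.15 TPM (SD, n = 3) in WT libraries. Its direction was opposite to a loss: it was 1.12, 1.31 and 1.42 TPM in the WT and 1.68, 1.77 and 2.07 TPM in the LRP5-null libraries, without overlap (log2 fold change 0.31, limma adjusted p = 0.136). Lyz2, into which this Cre is inserted, went with the labels: it was 26791, 26300.4 and 24797 TPM in the WT and 14027, 13989 and 13359.7 TPM in the LRP5-null libraries (log2 fold change −0.91, limma adjusted p = 0.00351). Directions below rest on the labels, of which the Lyz2 values check the Cre allele and not the loss of Lrp5.

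Immediate early genes are those that a stimulated cell transcribes within minutes, from factors already present, without making new protein first. Most of these genes encode transcription factors: FOS and JUN proteins pair to form AP-1, ATF3 joins JUN proteins, and EGR1 binds GC-rich sites. Their transcripts are short-lived. In leukocytes they are switched on by chemoattractants, microbial products and adhesion, and also by the isolation of the cells itself.

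The libraries differed in ways other than their label. The authors' read summary lists between 249841492 and 340580330 reads per library. Intronic reads made up 8.6%, 7.78% and 9.0% in the WT and 10.95%, 11.23% and 10.62% in the LRP5-null libraries. Reads in coding or UTR sequence made up 86.05%, 87.03% and 83.84% in the WT and 82.39%, 81.85% and 82.41% in the LRP5-null libraries. These 2 shares parted the groups in every library, WT replicate 3 included, and cannot be told apart from the label. The ribosomal share of the reads was 1.20% for WT replicate 1, 1.30% for replicate 2 and 3.30% for replicate 3, and LRP5-null libraries had 2.69% to 2.98%. WT replicates 1 and 2 also had lower values of GC-rich transcripts than the other 4 libraries: across 8769 genes, the deviation from the mean of all libraries had a Spearman correlation with GC content of −0.61 and −0.43 in those 2 and of 0.33 to 0.44 in the others. These correlations run across genes, which are not replicates, and describe the libraries only. Summed levels of other cell types' markers were low, and those of neutrophil markers made up 412331 to 459617 TPM. Monocyte and macrophage markers summed to 56.0 to 69.0 TPM in the WT and 68.1 to 77.2 TPM in the LRP5-null libraries, with 4 of 8 genes tested (50.0%) higher without overlap, where 17.4% of all genes were. The sums were 118 to 131 and 118 to 133 TPM for B lymphocyte markers, 12.4 to 14.2 and 16.4 to 17.7 TPM for T and NK cell markers, 13.6 to 16.5 and 17.1 to 18.04 TPM for eosinophil and basophil markers, 56.8 to 63.9 and 50.6 to 62.0 TPM for erythroid markers and 27.7 to 33.3 and 35.1 to 37.4 TPM for megakaryocyte and platelet markers. T and NK, eosinophil and basophil, and megakaryocyte sums were higher in the LRP5-null libraries without overlap, while the B lymphocyte, monocyte and erythroid sums overlapped. Prg2 of the eosinophil and basophil list was the only marker gene called (log2 fold change 0.91, limma adjusted p = 0.0341). It was 0.85, 1.16 and 1.05 TPM in the WT and 2.91, 2.33 and 3.13 TPM in the LRP5-null libraries. No gene of these lists was at 0 in every library, and for each cell type other than neutrophils between 1 and 7 genes of the list stayed below 1 TPM in all of them. The part of these differences in the results below was not tested beyond the comparisons given there.

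DNA upstream of the genes shows the elements for which immediate early genes are known: the serum response element, whose core is the CArG box bound by SRF, and the cAMP response element (CRE, TGACGTCA) bound by CREB and ATF proteins. In the 500 bases before each gene's start in NCBIM37 (mm9), a CArG box was found at 3 of the 10 genes, Fos, Fosb and Egr1, and at 2.72% of 22754 protein-coding genes. Egr1 held 5 of them, between 407 and 74 bases before its start. A CRE was found at Btg2 and Ier2, 2 of the 10, against 2.17% of all. The EGR element (GCGNGGGCG) was found at Btg2, Fosb and Jun, 3 of the 10, against 7.10% of all, and the AP-1 element (TGANTCA) at Fos alone, against 12.2% of all. Both strands were searched, and no matches of different motifs overlapped at these genes. A match describes the letters and is not a binding site. The window was widened after a search of the 250 bases before the RefSeq starts (GRCm38.p6) had found no CArG box at any of the 8 genes listed there. A few stretches with the best known kinds of element are shown, 5′ to 3′ on the strand of the gene, with matches in capitals. They are the CArG boxes of Fos and Fosb, at chr12:86814519-86814552 on the plus strand and chr7:19895645-19895678 on the minus strand, the CRE of Ier2, at chr8:87186777-87186808 on the minus strand, and the CRE and EGR element of Btg2, at chr1:135975843-135975910 on the minus strand (all NCBIM37).
Fos: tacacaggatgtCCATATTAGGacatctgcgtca
Fosb: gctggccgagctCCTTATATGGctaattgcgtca
Ier2: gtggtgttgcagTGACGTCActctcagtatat
Btg2: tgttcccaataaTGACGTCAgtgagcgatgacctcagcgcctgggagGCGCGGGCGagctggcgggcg
The CArG boxes of Fos and Fosb lay at a similar distance, 309 and 272 bases before the start, and the CRE began 45 bases before the start of Ier2 and 201 before that of Btg2.

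Transcripts of the 10 genes had features in common that played no part in their choice. Jun, Junb, Jund and Ier2 consist of a single exon in GENCODE M1, or 4 of 10 genes against 2.05% of the 8769 tested genes with a transcript there. The other 6 have 2 or 4 exons, and the median of all was 9. The AU-rich pentamer ATTTA, a mark of unstable mRNA, occurred in the 3′ UTR of 9 of the 10, from 1 copy in Fosb and Jund to 5 in Ier3 and Btg2, and in 67.7% of 8654 tested genes. Ier2 had none. The longer TATTTAT, which contains the pentamer, occurred in 7 of 10 against 27.9%, with 4 copies in Ier3. Per kilobase of 3′ UTR there were 0.986 copies of TATTTAT over the 10 genes and 0.284 over all. GC content of the transcripts ranged from 49.7% in Btg2 to 62.6% in Junb and 62.7% in Jund, and 9 of the 10 lay above the median of 50.0%.

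All 10 genes were well expressed in every library, at levels that spanned 24.97-fold from gene to gene (the plot of levels by library). Fos, with a mean of 850.1 TPM, ranked 96th of the 9775 genes and stood above every other gene of the set in each library. Junb (435.8 TPM), Btg2 (372 TPM) and Ier2 (307 TPM) followed, and their order was the same in all 6 libraries although the ranges of neighbours overlapped. Jund had a mean of 173 TPM, Egr1 of 123 TPM and Jun of 59.3 TPM, each with a range clear of its neighbours. Atf3 (46.5 TPM), Fosb (38.0 TPM) and Ier3 (34.0 TPM) were lowest, and their ranges overlapped: Atf3 was above Fosb in 5 of 6 libraries and Fosb above Ier3 in 4 of 6.

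**Figure D1:**
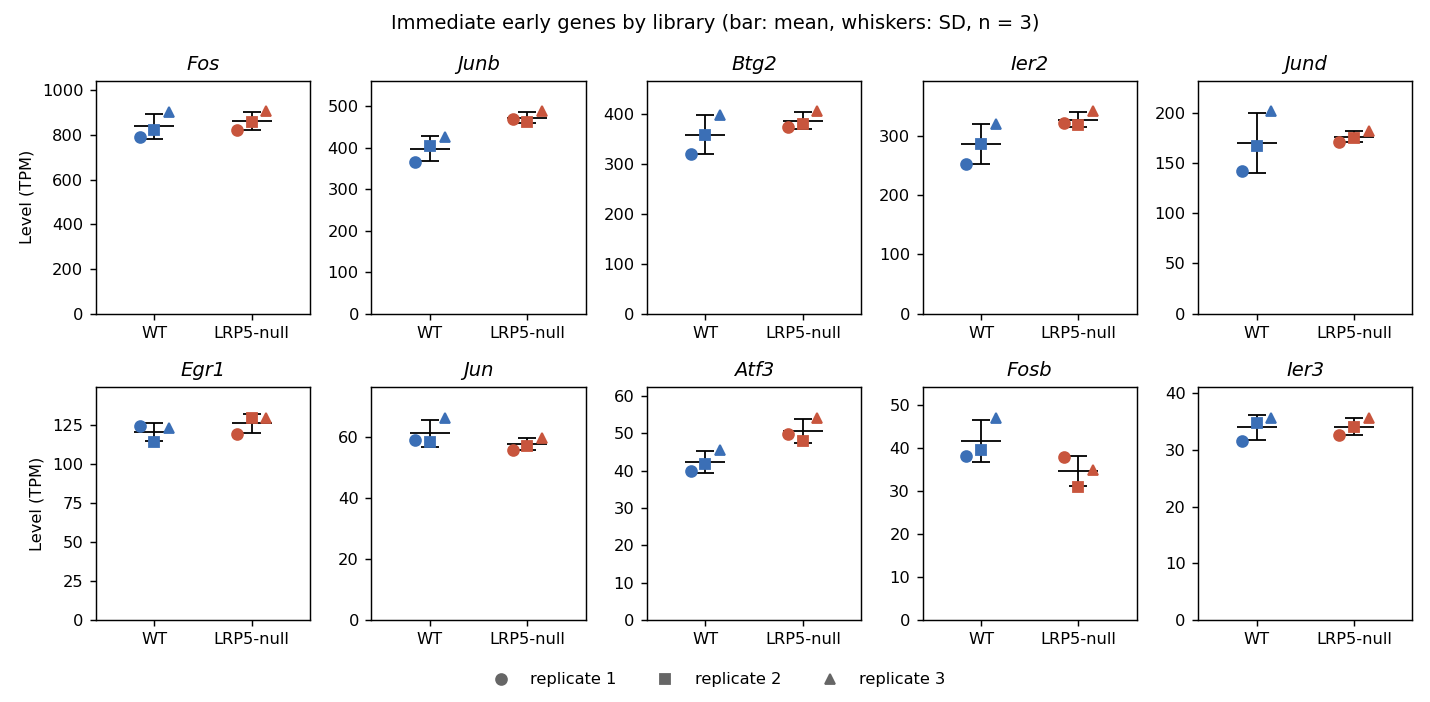
Levels of the 10 genes in TPM (vertical axis from 0) in the 3 libraries labelled WT (blue) and the 3 labelled LRP5-null (red), with symbols for replicate numbers, the mean as a bar and the SD as whiskers. Groups are apart in Junb and Atf3, higher in the LRP5-null libraries, and in Fosb, lower there, and they overlap in the other 7 genes.

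The comparison of the libraries labelled LRP5-null with those labelled WT asked whether immediate early transcripts differed in isolated marrow neutrophils. No gene of the set passed an adjusted p of 0.05 in limma over all 9775 genes, with adjusted p from 0.129 to 0.962, where 0.532% of all genes did. Before adjustment 3 of the 10 (30.0%), Junb, Atf3 and Fosb, had a limma p under 0.05, against 23.5% of all genes. The same 3 genes had groups without overlap, again 30.0% against 29.7% of all genes tested. Of these, 2 were higher in the LRP5-null libraries, a direction in which 17.4% of all genes were apart. The shares of the 10 genes are near those of all genes. The median log2 fold change, on the scale of log2(TPM + 1), was 0.065 for the 10 genes and 0.040 for all genes, and 8 of 10 were above 0, against 58.8% of all. With median ratio scaling, which moved the median of all genes to −0.023, Fos, Jund, Egr1 and Ier3 were below 0. The median of the 10 genes was then −0.0077, and it was also below 0 with the ribosomal share as a covariate (−0.018) and after removal of GC and length trends (−0.014). Every one of the 10 lay between the 5th and the 95th percentile of all genes, −0.32 and 0.38.

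Within the FOS family, Fos is the founding partner of AP-1, and it had the highest level and nearly equal groups. Fos, at chr12:86814840-86818223 (plus strand, NCBIM37 as for every gene below), was 790.3, 821 and 902 TPM in WT replicates 1 to 3 and 824, 857 and 905 TPM in LRP5-null replicates 1 to 3. The LRP5-null libraries lay inside the WT range except for replicate 3, just above it. The log2 fold change was 0.043 (95% interval −0.13 to 0.21, limma adjusted p = 0.750). Fosb, whose product takes the place of FOS in AP-1, lies at chr7:19888070-19895394 (minus strand). It was 38.1, 39.5 and 47.0 TPM in the WT and 37.9, 30.9 and 34.8 TPM in the LRP5-null libraries. These groups did not overlap, but the highest LRP5-null library and the lowest WT library were almost level, and the groups overlapped with quantile normalization and with rescaling without mitochondrial and the 20 most abundant genes. The log2 fold change was −0.26 (standard error 0.11, 95% interval −0.51 to −0.0034, limma unadjusted p = 0.0477, adjusted p = 0.208). WT replicate 3 moved its size: the log2 fold change was −0.17 without that library (limma adjusted p = 0.233) and −0.44 against it alone (limma adjusted p = 0.229). A fit against 1 WT library takes that library to vary like the others.

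Among the JUN family, Junb alone had groups without overlap. Junb, an AP-1 subunit gene that restrains proliferation in myeloid cells, lies at chr8:87500811-87502617 (minus strand). It was 367, 404 and 425 TPM in the WT and 469, 462 and 488 TPM in the LRP5-null libraries, without overlap. The mean was 473 ± 13.3 TPM (SD, n = 3) against 398 ± 29.6 TPM (SD, n = 3), or 18.8% higher, and the log2 fold change 0.25 (standard error 0.072, 95% interval 0.081 to 0.42, limma unadjusted p = 0.00966, adjusted p = 0.129). Against WT replicate 3, the WT library of similar ribosomal share, it was 0.15 (limma adjusted p = 0.302), and it was 0.089 (limma adjusted p = 0.225) after removal of the trends of each library with GC content and length. Jun, the first known partner of FOS, lies at chr4:94715725-94718913 (minus strand). It was 58.9, 58.2 and 66.3 TPM in the WT and 55.8, 57.1 and 59.6 TPM in the LRP5-null libraries. LRP5-null replicates 1 and 2 were below every WT library and replicate 3 lay among them. The log2 fold change was −0.085 (95% interval −0.26 to 0.093, limma adjusted p = 0.526), and −0.18 after GC and length trends were removed (limma unadjusted p = 0.00433, adjusted p = 0.0624).

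Jund, the JUN gene that is least dependent on stimulation, had the widest spread of the set among WT libraries. It lies at chr8:73221638-73224515 (plus strand), and was 142, 167 and 202 TPM in the WT and 172, 176 and 182 TPM in the LRP5-null libraries. All 3 LRP5-null libraries lay inside the WT range. The WT range was 1.42-fold and the LRP5-null range 1.06-fold. The direction of its log2 fold change turned with WT replicate 3: it was 0.066 (95% interval −0.22 to 0.35, limma adjusted p = 0.770) with all libraries, 0.20 without that replicate and −0.19 against it alone. Without WT replicate 1 it was −0.057. Jund has the highest GC content of the set, and the correlation with GC content given above was likewise lowest in WT replicate 1 and next lowest in WT replicate 2. Its part in the Jund values was not tested beyond the fit with GC and length trends removed, in which the log2 fold change was −0.083.

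Atf3 encodes a stress-induced factor that joins JUN proteins and damps inflammatory genes. It lies at chr1:192994175-193007219 (minus strand), and was 39.8, 41.7 and 45.6 TPM in the WT and 49.7, 47.9 and 54.2 TPM in the LRP5-null libraries. Each LRP5-null library was above each WT library. The means were 50.6 ± 3.27 TPM (SD, n = 3) and 42.4 ± 2.97 TPM (SD, n = 3), 19.4% higher, with a log2 fold change of 0.25 (standard error 0.082, 95% interval 0.059 to 0.44, limma unadjusted p = 0.0173, adjusted p = 0.149). It was 0.14 against WT replicate 3 alone (limma adjusted p = 0.465) and 0.19 after removal of GC and length trends (limma adjusted p = 0.0894). Atf3, Junb and Ier2 were above 0, and Fosb and Jun below 0, in all 18 alternative fits. The groups of Atf3 and of Junb were apart in all 18 and those of Fosb in 16. Most of these fits cannot make groups overlap that are apart with all libraries. Only median ratio scaling, quantile normalization, rescaling and removal of GC and length trends could do so. In these, 32.3%, 30.2%, 32.4% and 33.5% of all genes were apart.

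Egr1, a zinc finger factor gene induced through serum response elements, had nearly equal groups. It lies at chr18:35020861-35024638 (plus strand), and was 125, 114 and 123 TPM in the WT and 119, 129 and 130 TPM in the LRP5-null libraries. Groups overlapped, and the log2 fold change was 0.064 (95% interval −0.10 to 0.23, limma adjusted p = 0.606). Its WT libraries had the smallest spread of the 10 genes, with an SD of 0.069 on the log2 scale, against 0.071 among its LRP5-null libraries.

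The other genes encode products that are not DNA-binding factors of this kind. Ier2, a rapidly induced gene whose product acts in the nucleus, lies at chr8:87185230-87186751 (minus strand). It was 252, 287 and 319.8 TPM in the WT and 322, 319.5 and 342 TPM in the LRP5-null libraries. Here 2 LRP5-null libraries lay above every WT library and replicate 2 was just below WT replicate 3. The log2 fold change was 0.20 (95% interval −0.017 to 0.42, limma adjusted p = 0.239), and 0.035 against WT replicate 3 alone. Btg2, which encodes an antiproliferative protein that recruits the mRNA deadenylase, lies at chr1:135971747-135975697 (minus strand). It was 320.3, 357 and 397 TPM in the WT and 374, 380.1 and 405 TPM in the LRP5-null libraries, which overlapped. The log2 fold change was 0.11 (95% interval −0.094 to 0.32, limma adjusted p = 0.467). Ier3, which encodes a small survival protein of the ERK and NF-κB pathways, lies at chr17:35958629-35959868 (plus strand). It was 31.5, 34.8 and 35.6 TPM in the WT and 32.7, 34.0 and 35.7 TPM in the LRP5-null libraries, the closest means of the set. The log2 fold change was 0.0079 (95% interval −0.17 to 0.19, limma adjusted p = 0.962), and it was −0.044 without WT replicate 1 and −0.024 without LRP5-null replicate 3.

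**Figure D2:**
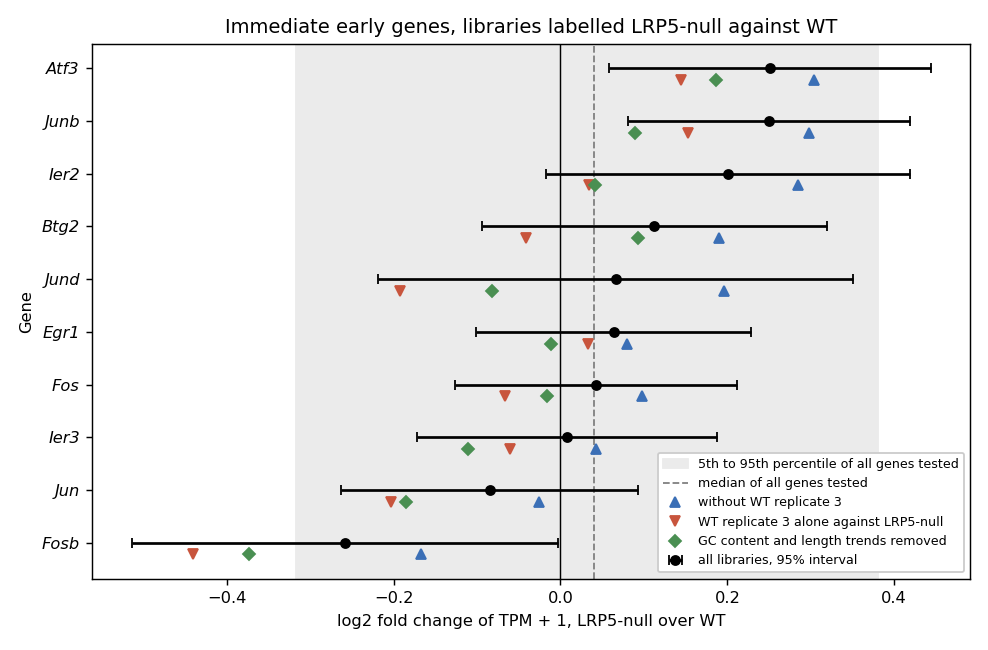
Log2 fold change of TPM + 1, libraries labelled LRP5-null over WT (horizontal axis), for each of the 10 genes: all libraries with the 95% interval of limma (black), without WT replicate 3 (blue), against WT replicate 3 alone (red) and after removal of GC and length trends (green). Grey marks the 5th to 95th percentile of all genes tested. Atf3, Junb and Fosb have intervals clear of 0, and each gene lies higher without WT replicate 3 than against it alone.

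Genes of the set were called only when WT replicate 3 was left out. Without it, Junb (log2 fold change 0.30, limma adjusted p = 0.0269), Atf3 (0.30, limma adjusted p = 0.0381) and Ier2 (0.28, limma adjusted p = 0.0429) passed the threshold. All were higher in the LRP5-null libraries, and 1938 of all 9781 genes (19.8%) were called. The WT libraries left were replicates 1 and 2, of low ribosomal share and negative correlation with GC content. In that fit the label cannot be told apart from these 2 traits. With all libraries and GC and length trends removed, the log2 fold changes of Junb, Atf3 and Ier2 were 0.089, 0.19 and 0.042. In the other 17 alternative fits none of the 10 was called. Against WT replicate 3 alone the median of the 10 genes was −0.051, and that of all genes −0.0065.

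The same libraries were highest or lowest in most of the 10 genes. The levels of the 10 genes summed to 2164, 2324 and 2564 TPM in WT replicates 1 to 3. In LRP5-null replicates 1 to 3 the sums were 2455, 2494 and 2636 TPM, so the groups overlapped. WT replicate 3 was the highest WT library in 9 of the 10 genes, Egr1 being the exception, where 50.4% of all genes tested had it highest. LRP5-null replicate 3 was the highest LRP5-null library in 9 of 10, all but Fosb, against 53.3% of all genes. The highest of all 6 libraries was LRP5-null replicate 3 in 7 genes and WT replicate 3 in 3, Fosb, Jun and Jund. These 2 libraries also had the most reads, 340580330 and 331479906. WT replicate 1 was the lowest WT library in 8 of 10, against 40.9% of all genes. The size factors of median ratio scaling were also lowest in WT replicate 1 (0.956) and highest in LRP5-null replicate 3 (1.05). The part of scaling, read number, ribosomal share or GC content in this order was not tested. Spread within groups was like that of other genes. The median SD on the log2 scale was 0.11 among WT libraries and 0.062 among LRP5-null libraries for the 10 genes, and 0.13 and 0.066 for 5229 genes whose mean reached 10 TPM. WT libraries varied more than LRP5-null ones in 9 of the 10, all but Egr1, as they did in 76.7% of those 5229 genes.

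**Figure D3:**
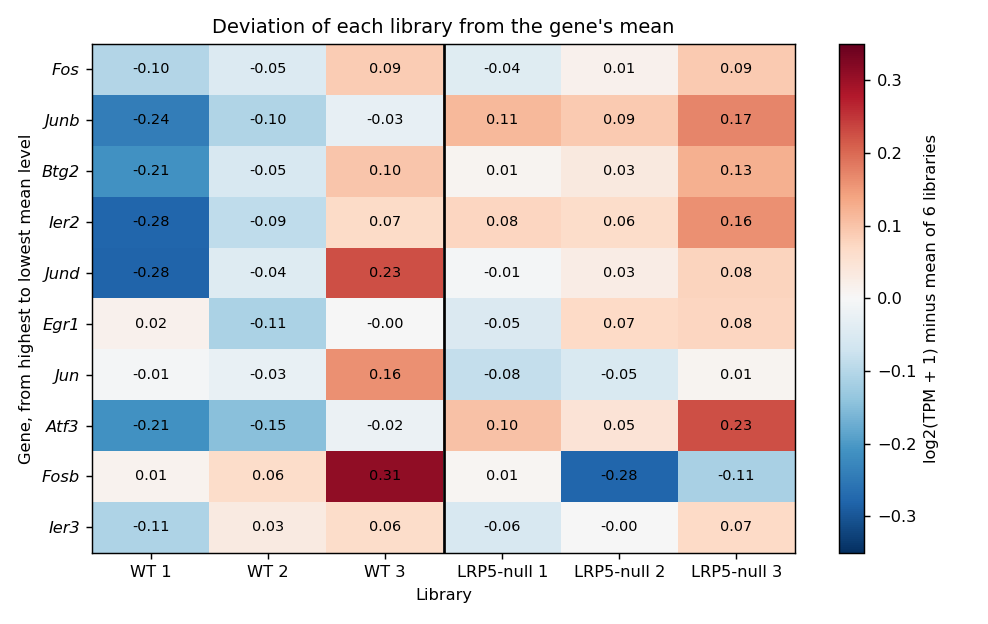
Deviation of each library from the gene's own mean, in log2(TPM + 1), for the 10 genes (rows, from highest to lowest mean level) in the 6 libraries (columns, the groups parted by a line). The column of WT replicate 1 is lowest in 7 rows, down to −0.28 in Ier2 and Jund, and the largest positive deviation is 0.31 for Fosb in WT replicate 3.

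Other genes lay close to the mean pattern of the 10 genes over the 6 libraries, which not every gene of the set followed. Fosb deviated by 0.31 in WT replicate 3 and −0.28 in LRP5-null replicate 2, where the mean pattern was 0.096 and 0.0018. Measured as the root mean square distance between centred log2 values and the mean of the 10 genes, the nearest of 5219 other genes at 10 TPM or more were Ifnar1, a subunit of the type I interferon receptor, Mlf2, Sephs2, an enzyme of selenoprotein synthesis, Agtrap and D17Wsu92e. Their distances were 0.013 to 0.018, against a median of 0.13 over all 5219. They were picked as the smallest, so this gap was fixed by the choice. Ifnar1, the nearest, was 30.9, 32.2 and 36.5 TPM in the WT and 33.5, 33.7 and 36.2 TPM in the LRP5-null libraries.

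Since AP-1 is a pair of FOS and JUN subunits, the shares of each family were compared as well, with Fosl1 and Fosl2 added to the FOS genes. Fos made up 79.9% to 81.5% of the FOS family's summed TPM in all libraries. Fosb took 3.90%, 3.92% and 4.19% in the WT and 3.68%, 2.90% and 3.08% in the LRP5-null libraries, and Fosl2 11.4%, 11.8% and 12.5% against 13.9%, 14.2% and 14.2%. Fosl2 itself, which encodes the FRA-2 subunit, was 111, 119 and 141 TPM in the WT and 143, 151 and 160.4 TPM in the LRP5-null libraries (log2 fold change 0.30, limma adjusted p = 0.153). Junb made up 64.6%, 64.2% and 61.3% of JUN transcripts in the WT and 67.4%, 66.5% and 66.9% in the LRP5-null libraries. The share of Jun was 10.4%, 9.25% and 9.57% in the WT and 8.02%, 8.21% and 8.17% in the LRP5-null libraries. That of Jund overlapped, at 24.98% to 29.1% and 24.6% to 25.3%. The FOS family exceeded the JUN family 1.72-, 1.603- and 1.62-fold in the WT and 1.48-, 1.54- and 1.55-fold in the LRP5-null libraries. The groups were apart in each of these shares but that of Jund, though barely in that of Fos. Shares within a library do not change with its scaling, but the trend of a library with GC content remains in them. GC content was 62.6% in Junb, 62.7% in Jund and 55.5% in Jun, and its part in the shares was not tested. Shares of 1 family depend on each other, and no background over other families was computed and no test was made.

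**Figure D4:**
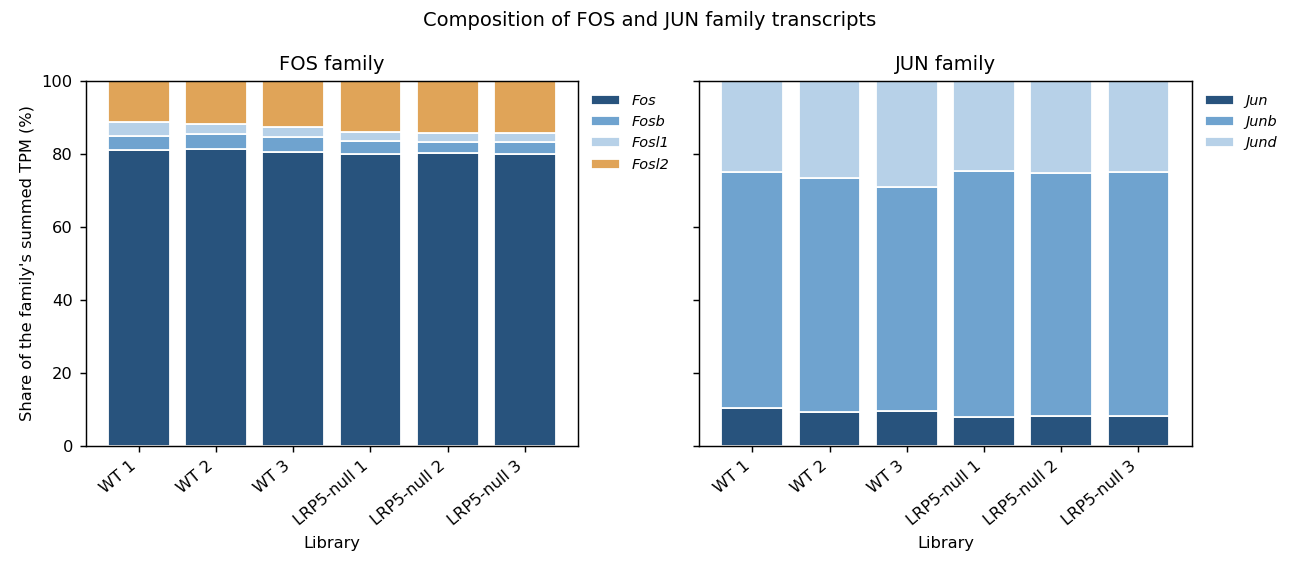
Share of each gene in the summed TPM of the FOS family (left) and the JUN family (right), in percent, in the 6 libraries. Fos holds 79.9% to 81.5% and Junb 61.3% to 67.4%, while Fosl2 and Junb hold a larger and Jun a smaller share in each library labelled LRP5-null than in each labelled WT.

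Of 106 genes tested in 6 related lists, 2 (1.89%) were called in limma, against 0.532% of all genes, and 28 (26.4%) had an unadjusted p under 0.05, against 23.5% of all genes (the plot of related lists). The lists were drawn with earlier results of these data known, so their shares are a description and no evidence of enrichment. Of 16 other AP-1 and ATF genes tested, 0 were called in limma and 5 had an unadjusted p under 0.05, 4 of them higher in the LRP5-null libraries, with a median log2 fold change of 0.039. The most abundant were Atf4, the factor of the integrated stress response (0.19), Fosl2 and Nfe2l2, the antioxidant factor NRF2 (−0.050), with limma adjusted p from 0.153 to 0.693. Among 11 EGR, NR4A and KLF factor genes, 0 were called in limma and 3 had an unadjusted p under 0.05 (median 0.053). Klf6, an early response factor gene, was 547, 512 and 451 TPM in the WT and 406, 412 and 419.7 TPM in the LRP5-null libraries, without overlap (log2 fold change −0.28, limma adjusted p = 0.127). Klf2 and Nr4a1, induced by flow and by antigen or growth factor signals, had log2 fold changes of 0.053 and 0.068 (limma adjusted p = 0.825 and 0.696).

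The 40 other rapidly induced genes tested held both calls, lower in the LRP5-null libraries (5% of the list against 0.532% of all genes). This list too was drawn with earlier results known, so its shares only describe it. Of the 40, 16 (40%) had a limma p under 0.05 before adjustment, against 23.5% of all genes, with 8 in each direction (median log2 fold change 0.0026). Dusp6, the phosphatase that ERK signaling induces to switch ERK off, was 299.8, 262 and 277 TPM in the WT and 168, 178 and 183 TPM in the LRP5-null libraries. Dusp6 fell by 0.66 on the log2 scale (limma adjusted p = 0.0276, standard error 0.074) and was called in 10 of 18 alternative fits with adjusted p from 0.00906 to 0.164. Cxcl2, a chemokine gene that activated neutrophils transcribe, was 348, 348 and 319.6 TPM in the WT and 248, 229.98 and 247 TPM in the LRP5-null libraries. Cxcl2 fell by 0.48 on the log2 scale (limma adjusted p = 0.0371, standard error 0.067) and was called in 7 of 18 alternative fits with adjusted p from 0.0103 to 0.186. Fits that left out any 1 LRP5-null library or WT replicate 2 called neither, and these called only 0.0205% to 0.154% of all genes. Without WT replicate 1, Dusp6 but not Cxcl2 was called, among 0.184% of all genes. The differences kept their size: over the 18 fits the log2 fold change was −0.74 to −0.61 for Dusp6 and −0.56 to −0.40 for Cxcl2. The groups were apart in each fit, which most of the fits could not change, as said for Atf3 and Junb.

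Genes upstream of the response were not called with all libraries. Without WT replicate 3 there were 3 calls among 12 SRF and CREB regulators, 2 among 18 MAP kinase and RSK genes and 1 among 8 heat shock genes. In that fit 19.8% of all genes were called. With all libraries 23.5% of all genes had a limma p under 0.05 before adjustment. Of 13 genes of SRF, its TCF and MRTF partners and CREB with its coactivators, 0 were called in limma and 1 had an unadjusted p under 0.05, with a median log2 fold change of 0.10. Mkl1, Ep300 and Crtc2, coactivators of SRF and CREB, had log2 fold changes of 0.18, 0.17 and 0.050 (limma adjusted p = 0.345, 0.304 and 0.772). Of 18 MAP kinase and RSK genes, 0 were called in limma and 2 had an unadjusted p under 0.05 (median −0.047). Mapk3, the gene of ERK1, was at −0.038, Rps6ka1 at −0.0029 and Mapk14, the gene of p38α, at −0.23 (limma adjusted p = 0.840, 0.989 and 0.592). Of 8 heat shock genes, which isolation of cells can also induce, 0 were called in limma and 1, Hspa8, had an unadjusted p under 0.05 (median −0.099). Hspa8 was 347, 299.98 and 303 TPM in the WT and 219.98, 257 and 258 TPM in the LRP5-null libraries (log2 fold change −0.37, limma adjusted p = 0.102). Hsp90ab1 and Dnaja1 were at −0.099 and −0.15 (limma adjusted p = 0.402 and 0.515).

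**Figure D5:**
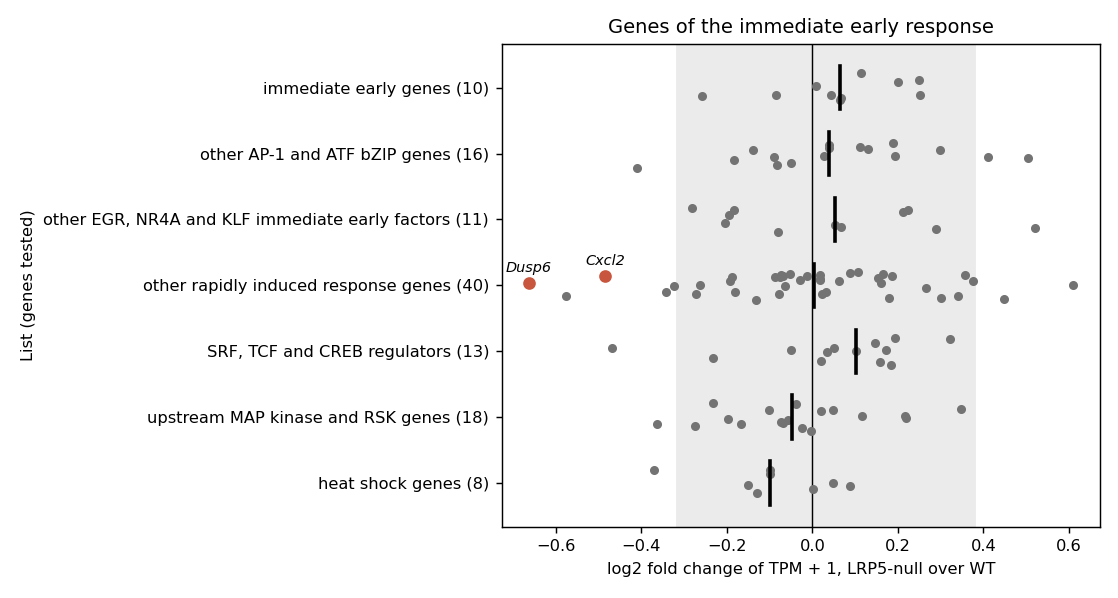
Log2 fold change of TPM + 1, libraries labelled LRP5-null over WT (horizontal axis), of each gene tested in the 10 immediate early genes and 6 related lists (rows, with the number tested), where a black line is the list's median, red marks an adjusted p under 0.05 and grey shading the 5th to 95th percentile of all genes. The medians lie between −0.099 and 0.10, and Dusp6 and Cxcl2 are the only genes called.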

How the data were processed

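The authors aligned reads to mm9 and name the DESeq2 pipeline, but deposited a table of TPM, whose tool is not given in the sources used here. A read summary deposited by the authors gives counts of reads per library, percent of reads by class and a coverage ratio at each transcript end. It lists paired reads of 94 bases, while the methods state single-end sequencing. The labels name an mRNA kit, the methods a kit for stranded total RNA. Cells were isolated on a Percoll gradient per the labels and, per the methods, sorted for CD11b and Ly6G. Because TPM is not a count, no count model was used. For genes whose mean reached 1 TPM, log2(TPM + 1) was fitted with limma 3.58.1 in R 4.3.3, with a mean-variance trend, over 3 libraries per label without covariates, and adjusted by Benjamini-Hochberg over all 9775 genes. The fit was tested on simulated data with independent errors for each gene. These data held no trend of a library with GC content or ribosomal share, and the added changes were larger than those of the 10 genes. That test therefore does not speak to such trends or to changes of this size. The 10 genes, the related lists, drawn from general knowledge, and the tests were chosen with earlier results of these data known. All 10 are named. From each related list the genes called, or else the 3 with the highest mean, are named, and the 5 genes nearest in pattern by root mean square distance. Any other gene named was chosen after its values were seen. Lists are given by counts and medians, without a set test. Transcript features, matched on the identifier without its version for 89.7% of genes tested, and coordinates are of GENCODE M1 (NCBIM37). The promoter window of 500 bases was chosen after the data were seen. The identifiers in the table are of a later annotation. Trends with GC content and length were removed by natural splines with 4 degrees of freedom each.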

Additional observations from a re-analysis of the deposited data

How the results depend on the processing

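Tested were a pseudocount of 0.1, no filter or one at 5 TPM, median ratio scaling, quantile normalization, rescaling without mitochondrial and the 20 top genes, limma with no trend or with robust settings, leaving out single libraries, a replicate block, WT replicate 3 by itself, a ribosomal covariate and removal of trends with GC content and length. The number of the 10 genes called was 0 in all but 1 of the 18, and 0 to 3 when 1 library was left out, with 3 without WT replicate 3. Genes without overlap numbered 3 to 7 with 1 library left out. They were 7 without WT replicate 3, where 56.1% of all genes were apart, and 5 each against WT replicate 3 alone (65.2% of all), with quantile normalization (30.2%) and after removal of GC and length trends (33.5%). The median log2 fold change, 0.065 with all libraries, was −0.051 against WT replicate 3 alone. It was also below 0 with median ratio scaling (−0.0077), with the ribosomal covariate (−0.018) and after removal of GC and length trends (−0.014).

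Of the values of single genes under these settings 18 had the opposite sign, 159 kept sign and call and 3 gained a call, and of the 18 none was called. With median ratio scaling Fos was −0.031, Jund −0.0066, Egr1 −0.0087 and Ier3 −0.063. Against WT replicate 3 alone Fos was −0.067, Jund −0.19, Ier3 −0.061 and Btg2 −0.042. With the ribosomal share as a covariate Fos was −0.038, Jund −0.11 and Ier3 −0.046, and after removal of GC and length trends Fos −0.016, Jund −0.083, Egr1 −0.012 and Ier3 −0.11. With 1 library left out Jund ranged from −0.057 to 0.20 and Ier3 from −0.044 to 0.042. The cause was not tested. Over all genes 52 were called, and 2 to 1938 under these settings.

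Deviations of same-numbered libraries over 9775 genes had correlations of 0.23, −0.0075 and 0.13. Between differently numbered libraries of the 2 groups they were −0.21 to 0.083. Correlations across genes cannot settle whether the numbers pair the libraries. With the replicate block 0 of the 10 genes and 4 of all genes were called. Of the 40 other rapidly induced genes 2 were called, and 0 to 14 with 1 library left out, 0 without a filter and 10 after removal of GC and length trends. Without WT replicate 3 the AP-1 and ATF list and the EGR, NR4A and KLF list had 3 calls each, the latter 1 after removal of GC and length trends, and 0 with all libraries. Over all genes 19.8% were called without WT replicate 3, the fit with 14 calls above, and 4.90% after removal of GC and length trends. TPM keeps no depth, so the counting error of these values is unknown.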
